A study of Mus musculus with 6 samples.

Results

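The genes described here are 38 markers of macrophages and of leukocytes in general, measured in mouse ovary at 9 days post partum (dpp). They were taken by symbol from an expression table of 47205 genes, and each of the 38 had a single row. RNA sequencing of ovaries compared 3 libraries of genotype WT with 3 libraries of genotype SRSF1 cKO, written cKO below, which lack the splicing factor gene Srsf1 in granulosa cells, the somatic cells around the oocyte. For the mouse strain, the Cre driver, the number of mice per library and any alleles of the WT mice, nothing is given in the sources used here. Nothing in the labels says that the libraries of a group came from separate mice, so p-values measure the spread between these libraries, which may be technical.

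Macrophages settle in the ovary during development and are kept there by signals through the receptor CSF1R, and they clear dying cells during the loss of oocytes and follicles. Tissue-resident macrophages are commonly told from recently arrived monocytes by scavenger and mannose receptors, while the monocyte and its early progeny carry genes such as Lyz2, Itgam and Ly6c2. Pan-leukocyte genes such as Ptprc, which encodes CD45, are shared by nearly all white blood cells. The members were therefore sorted by textbook role into 12 resident macrophage genes, 15 monocyte and myeloid genes and 11 pan-leukocyte genes. These classes overlap, since macrophages carry genes of all of them. In RNA from a whole organ, more cells of a type and more RNA per cell cannot be told apart.

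The libraries held 16.8 to 18.7 M reads as recovered from the deposited values, and 1 read in a gene of 1 kb was worth 0.052 to 0.0581 FPKM (fragments per kilobase of gene, scaled by library). Srsf1 stood at 39.9, 49.6 and 46.3 FPKM in the WT libraries and at 20.3, 26.9 and 21.4 FPKM in the cKO libraries (values are given in replicate order throughout), so that the groups did not overlap (limma log2 fold change -0.96 with an SE of 0.134, adjusted p = 0.32). Genes of the labelled tissue were present in all libraries, with summed levels of 1870 to 2060 FPKM for 10 oocyte genes and 737 to 955 FPKM for 10 granulosa genes. At an unadjusted limma p under 0.05, which 3.64% of all genes reached upward and 2.7% downward, some genes of granulosa and surface epithelium differed too. Of the 10 granulosa genes 5 were lower and 1 higher (median log2 fold change -0.4; 4 and 0 without cKO replicate 1), and of 9 surface epithelium genes 4 were higher and 0 lower (median 0.67; 4 without cKO replicate 1). Of 8 stroma and 8 endothelial genes, 0 were higher or lower (median log2 fold changes 0.06 and 0.15). With all genes from a mean of 0.1 FPKM tested, 2 endothelial genes were higher (3.49% of all genes). No gene of these 4 lists had a limma adjusted p under 0.05 (smallest 0.32). The summed level of the surface epithelium genes was 176, 130 and 144 FPKM in WT and 197, 261 and 263 FPKM in cKO. The part of these differences in the leukocyte levels was not tested. For the leukocyte genes 1 library stood apart. In cKO replicate 1, 31 of the 38 members had their highest value of the 6 libraries, whereas this library was highest for 15.3% of the 22699 genes whose mean reached 0.1 FPKM. Counts and medians over the members, and fold changes that it moves by more than 1.5 times, are therefore also given without it.

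The mean of the cKO libraries was above that of the WT libraries in 37 of 38 members, against 50.7% of all genes at this filter. Summed over the 38 genes, the level came to 89.5, 84.7 and 111 FPKM in WT, beside 356, 134 and 217 FPKM in cKO. Much of these sums came from Cyba, which many cell types make, and from Lyz2. Cyba gave 31.4, 33.9 and 38.6 FPKM in WT and 44.8, 45.9 and 37.8 FPKM in cKO. Lyz2 gave 8.84, 4.53 and 11.7 FPKM in WT and 73.9, 15.5 and 38.2 FPKM in cKO. All cKO sums lay above all WT sums, but the cKO libraries spread widely, and replicate 2 lay near the WT range. The members' values in all libraries are plotted by class.

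**Figure D1:**
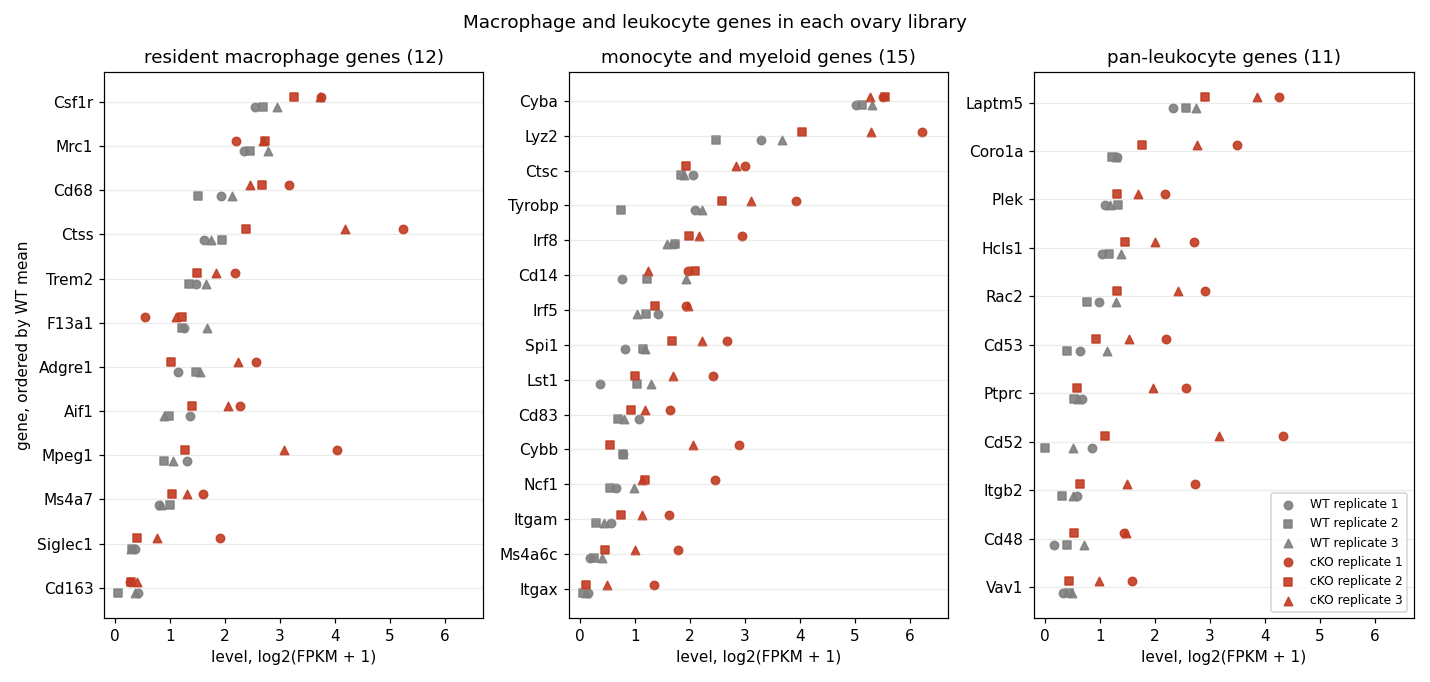
Level of each of the 38 members as log2(FPKM + 1) (x axis) by gene (y axis) and class (panels); each point is 1 library, WT in grey and cKO in red, with the marker shape giving the replicate number. Most red circles (cKO replicate 1) and triangles (replicate 3) lie to the right of the grey points, most red squares (replicate 2) lie close to them, and Mrc1, Cd163 and F13a1 show no such shift.

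No member passed the test over all genes. On the log2(FPKM + 1) scale, limma gave adjusted p of 0.613 or more for the 31 members with a mean of at least 1 FPKM, where the threshold of 0.05 was passed by 1 of 14714 genes upward (0.0068%) and by 2 downward (0.0136%). Of these 31 members, 9 had a WT mean under 1 FPKM and entered the test through the cKO libraries, so nothing is read from counts over the 31 (20 higher at an unadjusted limma p under 0.05, against 3.64% of genes, and 16 with every cKO library above every WT library, against 6.37%). With the filter lowered to 0.1 FPKM, all 38 members were tested, Itgax being the 1 whose WT mean, 0.0712 FPKM, was still below it. At that filter 0 members passed the adjusted threshold, against 0.00441% of the 22699 genes for higher and 0.00881% for lower. At an unadjusted limma p under 0.05, 22 members were higher and 0 lower, where 3.49% of all genes were higher and 2.56% lower. limma-voom on the recovered reads gave 0 members past the adjusted threshold.

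In 19 of 38 members every cKO library lay above every WT library, and in 0 every cKO library lay below, where the shares among all genes were 6.0% and 5.85%. For a single gene, 3 against 3 libraries cannot give an exact two-sided permutation p below 0.1. The median log2 fold change over the 38 members was 0.81, beside 0.00 over all genes. Without cKO replicate 1 it was 0.48, with 13 members higher at an unadjusted limma p under 0.05 (2.8% of all genes) and 0 lower (2.21%), and the 2 remaining cKO libraries lay above all WT libraries in 19 members (10.1%). By class, the median log2 fold change was 0.63 over the resident macrophage genes, 0.73 over the monocyte and myeloid genes and 1.1 over the pan-leukocyte genes, and without cKO replicate 1 it was 0.28, 0.45 and 0.6. The differences between classes were not tested.

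**Figure D2:**
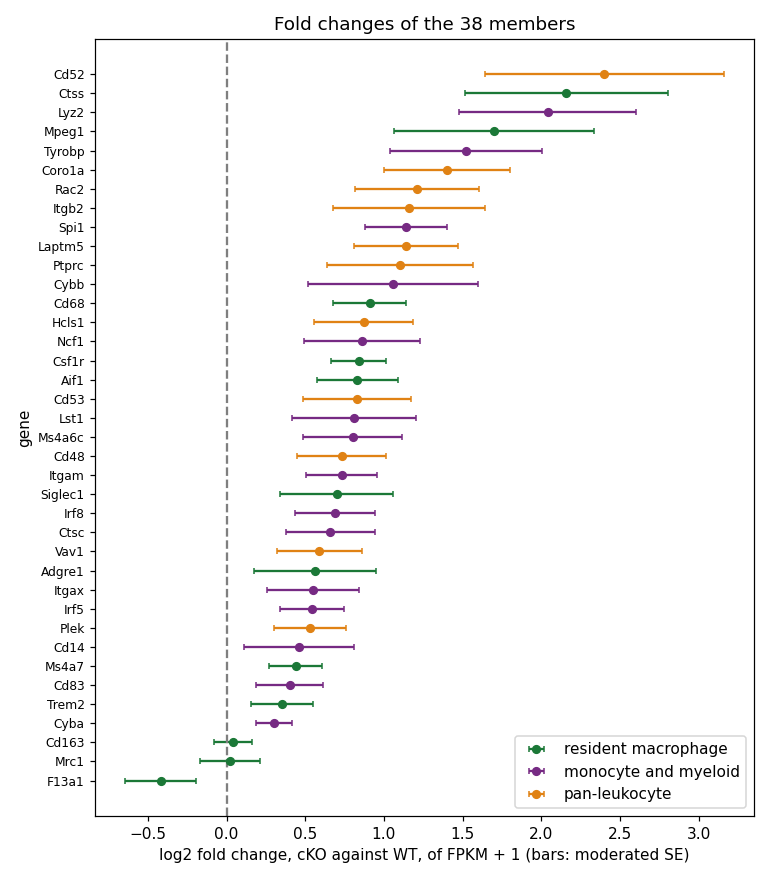
Log2 fold change of FPKM + 1, cKO against WT (x axis), for each of the 38 members (y axis), from the limma fit with the filter at 0.1 FPKM; points are coloured by class and bars are the moderated SE. Values run from -0.42 for F13a1 to 2.4 for Cd52, and 37 of the 38 points lie above 0.

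The cKO libraries differed from each other in the same order for most members. In 29 of 38 members cKO replicate 1 was highest and cKO replicate 3 second, against 4.67% of all genes. Replicates 1 and 3 both exceeded every WT library in 33 members (12.0% of all genes), whereas replicate 2 exceeded every WT library in 21 (30.1%), lay within the WT range in 15 and lay below it in 2. Relative to the WT mean, the median member stood at 4.75 times in cKO replicate 1, 1.33 times in replicate 2 and 2.76 times in replicate 3. More than 2 times the WT mean was reached by 32, 4 and 26 members in these libraries, against 7.31%, 7.03% and 5.98% of all genes. The order was chosen for description after the values were seen.

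**Figure D3:**
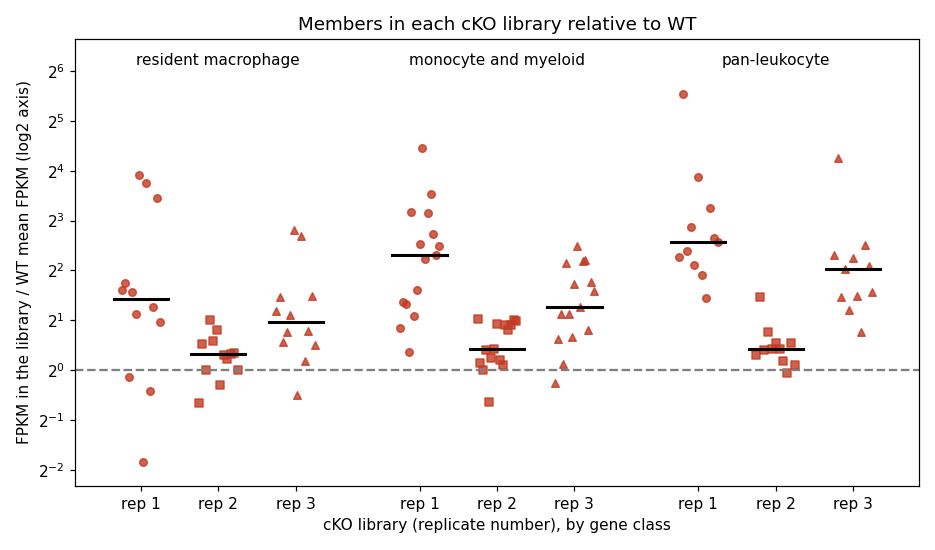
FPKM of each member in a cKO library divided by its WT mean (y axis, log2 axis), by cKO replicate and gene class (x axis); each point is 1 gene, black bars are medians and the dashed line marks the WT mean. Medians in replicates 1, 2 and 3 are 2.7, 1.25 and 1.94 for resident macrophage genes, 4.94, 1.34 and 2.41 for monocyte and myeloid genes, and 5.96, 1.34 and 4.08 for pan-leukocyte genes.

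Among the receptors that define tissue macrophages, Csf1r, the receptor whose signals keep macrophages alive, had the smallest p of all members. It stood at 4.84, 5.45 and 6.72 FPKM in WT and at 12.4, 8.49 and 12.2 FPKM in cKO. The groups did not overlap, and cKO replicate 2 was also above WT (5.67 ± 0.958 against 11 ± 2.2 FPKM, SD, n = 3 each). The log2 fold change was 0.84 (SE 0.171, limma adjusted p = 0.613), and the ratio of means was 1.94, or 1.82 without cKO replicate 1. Adgre1, which encodes the F4/80 antigen used to stain mouse macrophages, stood at 1.21, 1.76 and 1.91 FPKM in WT and 4.94, 1.03 and 3.68 FPKM in cKO. Its cKO replicate 2 was the lowest of the 6 libraries, so the groups overlapped. Siglec1, a sialic acid receptor that interferon is known to induce, stood at 0.285, 0.244 and 0.224 FPKM in WT and 2.73, 0.319 and 0.701 FPKM in cKO. All cKO libraries were above WT, replicate 2 by a narrow margin, and the ratio of means was 4.98, or 2.03 when cKO replicate 1 was left out. Trem2, a lipid receptor that signals through TYROBP, stood at 1.54 to 2.13 FPKM in WT and at 3.51, 1.82 and 2.57 FPKM in cKO, with replicate 2 inside the WT range. Without cKO replicate 1 the log2 fold change of Adgre1 went from 0.56 to 0.24, that of Siglec1 from 0.7 to 0.26 and that of Trem2 from 0.35 to 0.18.

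A group of resident macrophage genes showed little or no such difference. Mrc1, the mannose receptor CD206 that also marks some endothelial cells, stood at 4.07, 4.46 and 5.84 FPKM in WT and at 3.59, 5.61 and 5.46 FPKM in cKO. Here cKO replicate 1 was the lowest of the 6 libraries, and the log2 fold change was 0.02 (SE 0.185, limma adjusted p = 0.99), with its sign depending on the processing and a value of 0.19 without cKO replicate 1. Cd163, the scavenger receptor for haemoglobin bound to haptoglobin, was low throughout, with 3 to 27 recovered reads per library, and stood at 0.335, 0.0366 and 0.288 FPKM in WT and 0.199, 0.219 and 0.326 FPKM in cKO (log2 fold change 0.04, or 0.07 without cKO replicate 1). F13a1, the A chain of coagulation factor XIII, which is a marker of resident macrophages in several organs, was the 1 member with a lower cKO mean. Its values were 1.38, 1.33 and 2.19 FPKM in WT and 0.455, 1.33 and 1.16 FPKM in cKO (limma log2 fold change -0.42 with an SE of 0.233, adjusted p = 0.801), and without cKO replicate 1 the log2 fold change was -0.21. Again cKO replicate 1 was the lowest library, while replicate 2 lay inside the WT range.

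The ratio of one gene to another within a library does not depend on library scaling, and FPKM is a level per length. The ratio of Csf1r to Mrc1 was 1.19, 1.22 and 1.15 in WT, beside 3.46, 1.51 and 2.23 in cKO. For Ptprc to Mrc1 it was 0.143, 0.0988 and 0.0868 in WT and 1.36, 0.0869 and 0.528 in cKO. For Laptm5 to Mrc1 it was 0.98, 1.1 and 0.97 in WT and 5.05, 1.16 and 2.47 in cKO. F13a1 to Mrc1 went the other way, at 0.339, 0.298 and 0.374 in WT and 0.127, 0.238 and 0.213 in cKO. Csf1r, Ptprc and Laptm5 thus stood higher relative to Mrc1 in cKO replicates 1 and 3. In replicate 2 the Ptprc ratio was within the WT range, and those of Csf1r and Laptm5 were above it. The pairs of genes were picked with their values in view.

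The intracellular and secreted products of macrophages gave some of the larger differences. Ctss encodes cathepsin S, the lysosomal protease that trims the invariant chain of MHC class II (chromosome 3, 95434097 to 95463716 in GRCm39, plus strand). It stood at 2.08, 2.85 and 2.35 FPKM in WT and 36.7, 4.24 and 17.1 FPKM in cKO. Every cKO library was above WT, and the cKO values themselves differed several-fold (limma log2 fold change 2.16 with an SE of 0.638, adjusted p = 0.74, ratio of means 7.97, or 4.4 without cKO replicate 1). Mpeg1, which encodes perforin-2, a pore-forming protein of phagosomes, stood at 1.47, 0.861 and 1.07 FPKM in WT and 15.3, 1.4 and 7.36 FPKM in cKO, with replicate 2 inside the WT range. Cd68, a lysosomal glycoprotein of phagocytes, followed another order, with 2.79, 1.85 and 3.34 FPKM in WT and 7.93, 5.38 and 4.5 FPKM in cKO. All cKO libraries were above WT, and replicate 2 was second. Aif1, the calcium sensor IBA1, stood at 0.842 to 1.58 FPKM in WT and at 3.81, 1.62 and 3.13 FPKM in cKO. Ms4a7, a membrane protein of mature macrophages, stood at 0.744 to 0.994 FPKM in WT and 2.03, 1.06 and 1.46 FPKM in cKO. In both genes the groups did not overlap, with cKO replicate 2 just above the WT range. Without cKO replicate 1 the log2 fold change of Mpeg1 went from 1.7 to 1.08 and that of Ms4a7 from 0.44 to 0.29.

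Among the monocyte and myeloid genes, Lyz2, the lysozyme of monocytes, macrophages and granulocytes, had the largest difference in FPKM of any member (chromosome 10, 117113446 to 117118177, minus strand). It stood at 8.84, 4.53 and 11.7 FPKM in WT and 73.9, 15.5 and 38.2 FPKM in cKO, without overlap (limma log2 fold change 2.04 with an SE of 0.553, adjusted p = 0.74, ratio of means 5.09, or 3.21 without cKO replicate 1). Its near-identical neighbour Lyz1, named for this reason, was at 0.0918 FPKM or less in every library, and reads of the 2 genes may be misassigned. Itgam, the CD11b integrin chain, stood at 0.484, 0.223 and 0.358 FPKM in WT and 2.06, 0.678 and 1.18 FPKM in cKO, all above WT. Itgax, the CD11c chain of dendritic cells and some macrophages, stood at 0.104, 0.0369 and 0.0726 FPKM in WT and 1.55, 0.0815 and 0.402 FPKM in cKO. It rested on 3 to 8 reads in each WT library, 7 in cKO replicate 2 and 131 in cKO replicate 1. Cd14, the lipopolysaccharide co-receptor, departed from the common order, at 0.699, 1.32 and 2.8 FPKM in WT and 2.9, 3.26 and 1.35 FPKM in cKO, with overlapping groups. Ms4a6c stood at 0.139 to 0.315 FPKM in WT and 2.45, 0.374 and 0.989 FPKM in cKO, without overlap, though close family members can share its reads. Cd83, a surface protein of mature dendritic cells, and Lst1, a leukocyte membrane protein, had log2 fold changes of 0.4 (SE 0.225) and 0.81 (SE 0.393), with cKO replicate 2 inside the WT range in both. Without cKO replicate 1 these were 0.2 and 0.45, and the log2 fold change of Itgax went from 0.55 to 0.2 and that of Ms4a6c from 0.8 to 0.45.

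Tyrobp encodes DAP12, the adaptor through which TREM2 and other activating receptors signal. It stood at 3.23, 0.67 and 3.67 FPKM in WT and 14.3, 4.98 and 7.58 FPKM in cKO, with all cKO libraries above WT, and its WT replicate 2 value came from 7 reads. Of the transcription factors, Spi1 encodes PU.1, the regulator required to make macrophages (chromosome 2, 90912750 to 90946104, plus strand). Its level was 0.76, 1.2 and 1.28 FPKM in WT and 5.34, 2.17 and 3.67 FPKM in cKO, and all cKO libraries, replicate 2 included, exceeded WT (limma log2 fold change 1.14 with an SE of 0.261, adjusted p = 0.713). Irf8, which directs monocyte and dendritic cell development, was at 2.0 to 2.32 FPKM in WT and at 6.74, 2.95 and 3.49 FPKM in cKO, again without overlap, and its log2 fold change was 0.69, or 0.4 without cKO replicate 1. Irf5, a factor of inflammatory macrophages, stood at 1.04 to 1.66 FPKM in WT and 2.82, 1.58 and 2.9 FPKM in cKO, and overlaps the antisense gene Tnpo3, whose reads cannot be separated without strand. Tnpo3 itself stood at 13.2 to 17.2 FPKM over the 6 libraries.

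The phagocyte NADPH oxidase, which makes superoxide, showed unequal differences among its subunits. Cybb, the catalytic gp91phox chain that is largely limited to phagocytes, stood at 0.713, 0.71 and 0.71 FPKM in WT and 6.44, 0.455 and 3.15 FPKM in cKO, with replicate 2 the lowest library. It overlaps the antisense lncRNA gene Gm33784, which stood at 1.64, 3.11 and 2.15 FPKM in WT and 1.54, 1.01 and 1.69 FPKM in cKO, and reads of the pair cannot be separated without strand. Ncf1, the p47phox organiser, stood at 0.463 to 0.984 FPKM in WT and 4.49, 1.26 and 1.17 FPKM in cKO, all above WT. Without cKO replicate 1 the log2 fold change of Cybb went from 1.06 to 0.52 and that of Ncf1 from 0.86 to 0.42. Cyba, the p22phox chain that many cell types make, was the most abundant member per length and differed least among the oxidase members, at 31.4, 33.9 and 38.6 FPKM in WT and 44.8, 45.9 and 37.8 FPKM in cKO. Its log2 fold change was 0.3 (SE 0.115, limma adjusted p = 0.771), and cKO replicate 3 lay inside the WT range. Ctsc, the peptidase that activates granule proteases, stood at 2.55 to 3.17 FPKM in WT and at 7.02, 2.8 and 6.17 FPKM in cKO.

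Of the pan-leukocyte genes, Ptprc (chromosome 1, 137990597 to 138103491, minus strand) stood at 0.583, 0.44 and 0.507 FPKM in WT and at 4.88, 0.487 and 2.89 FPKM in cKO. The value of cKO replicate 2 lay inside the WT range, while replicates 1 and 3 were several times higher (limma log2 fold change 1.1 with an SE of 0.464, adjusted p = 0.773, ratio of means 5.39, or 3.31 without cKO replicate 1). Laptm5, a lysosomal membrane protein of blood cells, was the most abundant of the class, at 3.99, 4.89 and 5.67 FPKM in WT and 18.1, 6.48 and 13.5 FPKM in cKO. Here all cKO libraries exceeded WT (limma log2 fold change 1.14 with an SE of 0.328, adjusted p = 0.74, ratio of means 2.62, or 2.06 without cKO replicate 1). Cd52, a small GPI-anchored glycoprotein, had the largest ratio of means, 22.8, at 0.808, 0 and 0.43 FPKM in WT and 19.1, 1.14 and 7.91 FPKM in cKO. It rested on 7, 0 and 4 reads in the WT libraries, and a count of 0 reads in WT replicate 2 allows up to 0.328 FPKM (3 reads, counting error only). Without cKO replicate 1 the ratio was 11.

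The other pan-leukocyte members act in adhesion and in the actin skeleton. Itgb2, the shared chain of the leukocyte integrins, stood at 0.488, 0.24 and 0.419 FPKM in WT and 5.64, 0.56 and 1.81 FPKM in cKO. Coro1a, the actin regulator coronin 1A, stood at 1.48, 1.33 and 1.43 FPKM in WT and 10.3, 2.39 and 5.76 FPKM in cKO. Rac2, the GTPase of blood cells, stood at 0.975, 0.688 and 1.43 FPKM in WT and 6.51, 1.49 and 4.36 FPKM in cKO. In these 3 genes the groups did not overlap, and the same held for Hcls1, a substrate of leukocyte kinases, at 1.04 to 1.61 FPKM in WT and 5.56, 1.73 and 3.0 FPKM in cKO. In Cd53, Cd48, Vav1 and Plek cKO replicate 2 lay inside the WT range. Of these, the exchange factor gene Vav1 stood at 0.248 to 0.397 FPKM in WT and 1.98, 0.357 and 0.981 FPKM in cKO, and the tetraspanin gene Cd53 at 0.314 to 1.18 and 3.59, 0.91 and 1.89 FPKM. The SLAM family gene Cd48 stood at 0.114 to 0.635 FPKM in WT and 1.72, 0.441 and 1.78 FPKM in cKO, and the protein kinase C substrate gene Plek at 1.14 to 1.5 and 3.56, 1.48 and 2.22 FPKM. Leaving out cKO replicate 1 lowered the log2 fold change by more than 1.5 times in Ptprc (1.1 to 0.67), Itgb2 (1.16 to 0.6), Hcls1 (0.87 to 0.54), Cd53 (0.83 to 0.51), Vav1 (0.59 to 0.3) and Plek (0.53 to 0.3).

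Promoter sequences are shown for 4 members that span this range, from Ctss, Cybb and Laptm5 to Mrc1. Each is the 250 bases upstream of the start annotated by RefSeq in GRCm38.p6, a build other than that of the expression table, and was taken for 27 of the 38 members that had an entry. Capitals mark matches on either strand to GAGGAA, a core that PU.1 binds, or to GAAA, any 2 bases and GAAA again, the interferon-stimulated response element. Coordinates are chr3:95526536-95526785, plus strand for Ctss, chrX:9469325-9469574, minus strand for Cybb, chr4:130913066-130913315, plus strand for Laptm5 and chr2:14229164-14229413, plus strand for Mrc1.
Ctss: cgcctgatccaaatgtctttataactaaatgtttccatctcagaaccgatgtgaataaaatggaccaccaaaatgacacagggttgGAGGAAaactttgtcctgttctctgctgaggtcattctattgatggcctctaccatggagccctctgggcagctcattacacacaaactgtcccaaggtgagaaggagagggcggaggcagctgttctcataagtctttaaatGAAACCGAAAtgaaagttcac
Cybb: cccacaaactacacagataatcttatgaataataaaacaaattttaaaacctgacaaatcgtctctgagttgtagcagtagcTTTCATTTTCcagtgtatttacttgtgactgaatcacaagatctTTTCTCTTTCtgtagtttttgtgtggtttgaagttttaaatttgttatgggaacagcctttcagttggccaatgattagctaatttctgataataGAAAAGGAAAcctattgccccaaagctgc
Laptm5: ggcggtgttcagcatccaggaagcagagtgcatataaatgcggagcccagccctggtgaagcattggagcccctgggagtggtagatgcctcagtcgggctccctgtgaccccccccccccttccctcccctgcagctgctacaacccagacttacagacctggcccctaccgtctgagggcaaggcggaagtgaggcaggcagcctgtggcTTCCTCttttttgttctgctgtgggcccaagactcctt
Mrc1: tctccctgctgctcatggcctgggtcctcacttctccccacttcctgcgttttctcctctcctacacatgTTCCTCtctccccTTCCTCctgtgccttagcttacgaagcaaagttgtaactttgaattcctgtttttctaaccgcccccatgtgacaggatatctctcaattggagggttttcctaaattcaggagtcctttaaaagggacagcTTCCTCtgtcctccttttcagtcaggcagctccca
In Ctss the GAGGAA match begins at -164 and the response element at -21 relative to the start. Cybb holds response element matches at -168, -124 and -29, Laptm5 a GAGGAA match at -38, and Mrc1 such matches at -180, -167 and -35. Over whole windows, which run from 250 bases before to 50 after the start, GAGGAA was found in 16 of the 32 windows of these members (50%) and in 28.3% of the 32851 windows of all genes. The response element was found in 4 member windows (12.5%), those of Aif1, Ctss, Cybb and Ncf1, and in 3.44% of all windows. No member window held overlapping matches of both motifs, and 47 windows of all genes did. Mrc1, whose level differed little, thus carries 3 GAGGAA matches upstream of its start. A match is a stretch of letters and not a measured site.

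Genes known to act with the members were read from lists chosen by role. Of 20 genes of myeloid signalling, 14 were tested at 1 FPKM, and at an unadjusted limma p under 0.05 4 were higher (3.64% of all genes) and 0 lower (2.7%). They were Fcer1g, the Fc receptor gamma chain (4.06, 1.67 and 5.68 FPKM in WT, 23.2, 7.28 and 10.7 FPKM in cKO), Arpc1b, an actin nucleation subunit, the adaptor gene Pik3ap1, and Arhgdib. None passed the adjusted threshold (smallest limma adjusted p = 0.74), and without cKO replicate 1 the count was 1 of 12 tested (2.85%). Of the 14 genes tested, 2 had a WT mean under 1 FPKM and entered the test through the cKO libraries. Nothing is therefore read from the count over the 14. In 16 of the 20 genes cKO replicate 1 was highest and replicate 3 second (4.67% of all genes). The ligands of CSF1R were Csf1 at 4.37, 3.9 and 4.28 FPKM in WT and 6.0, 5.61 and 4.39 FPKM in cKO and Il34, named for its role, at 6.98 to 10.8 and 8.55 to 11.3 FPKM. Over the 9 growth factor and receptor genes, 0 of 5 tested had an unadjusted limma p under 0.05.

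A second list held 14 further tissue macrophage genes. Its summed level was 45.9, 48.7 and 46.1 FPKM in WT and 48.6, 58.8 and 39.3 FPKM in cKO, and 0 of 8 tested genes had an unadjusted limma p under 0.05 in either direction. Lyve1, a hyaluronan receptor that lymphatic vessels also make, stood at 3.16 to 5.81 FPKM in WT and 3.69 to 5.49 FPKM in cKO, and the folate receptor gene Folr2 at 1.53 to 2.62 and 1.43 to 2.58 FPKM, both named after their values were seen. Clec7a, the beta-glucan receptor dectin-1, had the smallest p on that list, at 0.213 to 0.28 FPKM in WT and 4.17, 0.228 and 1.72 FPKM in cKO. The median log2 fold change over the 13 of these genes that reached a mean of 0.1 FPKM was 0.05.

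Summed genes of blood monocytes stood highest in cKO replicates 1 and 3. The summed level of 10 such genes was 9.04 to 10.1 FPKM in WT and 39.9, 9.96 and 17.6 FPKM in cKO replicates 1, 2 and 3. Gene by gene, cKO replicate 1 was highest and replicate 3 second in 5 of the 10 (4.67% of all genes). The cKO mean was lower than the WT mean in 2 of the 10. Ly6c2, a surface marker of classical monocytes and some T cells, had 0 reads in all WT libraries and in cKO replicate 2, which allows 0.169 to 0.188 FPKM, and reached 11.2 FPKM in cKO replicate 1 and 2.3 FPKM in replicate 3. Its near copy Ly6c1, which endothelial cells make, stood at 5.89 to 9.46 FPKM in WT and 8.22 to 10.9 FPKM in cKO, so that reads of the 2 may be shared. Ccr2, the receptor that brings monocytes out of the blood, stood at 0.135, 0.233 and 0.332 FPKM in WT and 3.94, 0.176 and 1.56 FPKM in cKO. Of the 4 tested genes on this list, 0 had an unadjusted limma p under 0.05.

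Summed markers of NK cells, neutrophils, B cells and T cells stood highest in cKO replicates 1 and 3, and those of dendritic cells and eosinophils did not. The summed level of 8 NK cell genes was 0.42, 0.224 and 0.407 FPKM in WT and 6.72, 0.382 and 4.86 FPKM in cKO, with the cytotoxic granule gene Nkg7 at 0.2 FPKM or less in WT and 2.86, 0.192 and 1.74 FPKM in cKO. For 9 neutrophil genes the sum was 0.607 to 2.33 FPKM in WT and 38, 2.31 and 4.31 FPKM in cKO. Its defining members S100a8 and S100a9 stood at 13.5 and 19.0 FPKM in cKO replicate 1 and made most of the sum there. Elane was at 0 in all libraries. Over the neutrophil genes detected in WT, the median stood at 18.4, 0.962 and 1.5 times the WT mean in cKO replicates 1, 2 and 3. Summed B cell genes (8) stood at 5.23 to 7.52 FPKM in WT and 23, 5.69 and 10.2 FPKM in cKO, and summed T cell genes (11) at 5.29 to 8.63 and 14.5, 7.37 and 10.6 FPKM. In each of these 4 sums cKO replicate 1 was highest, replicate 3 second and replicate 2 inside the WT range. Gene by gene, however, this order of the first and second library held in only some genes (4.67% of all genes). It held in 5 of 8 NK cell, 7 of 11 T cell, 3 of 9 neutrophil and 1 of 8 B cell genes. Of their 27 genes tested at 0.1 FPKM, 7 were higher at an unadjusted limma p under 0.05 (3.49% of all genes) and 0 lower. The 7 were 3 NK cell, 3 T cell and 1 B cell gene. Without cKO replicate 1 it was 3 of 23 (2.8%). As the number tested fell from 27 to 23, and from 6 to 3 for neutrophil genes, some entered the test through cKO replicate 1. Nothing is therefore read from these counts. At 1 FPKM 5 of these genes were tested, and 0 had an unadjusted limma p under 0.05. Summed dendritic cell genes (7) stood at 13.2, 12.5 and 12.9 FPKM in WT and 11.9, 10.6 and 12.1 FPKM in cKO, with every cKO library below WT. Most of that sum came from Zbtb46, a transcription factor gene that endothelial cells also make (11.9 to 12.7 FPKM in WT and 10.1 to 11 FPKM in cKO). The sum therefore says little about the other dendritic cell genes, and 6 of the 7 had a mean under 1 FPKM. Over the genes detected in WT, the median stood at 3.37, 0.659 and 1.79 times the WT mean in cKO replicates 1, 2 and 3. Replicates 1 and 3 both exceeded every WT library in 3 of the 7 (12.0% of all genes). Summed eosinophil genes (5) stood at 0.331 to 0.486 FPKM in WT and 0.756, 0.317 and 0.331 FPKM in cKO. The part of these cells in the levels of genes they share with macrophages, such as Ptprc, Lyz2 and Itgb2, was not tested.

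**Figure D4:**
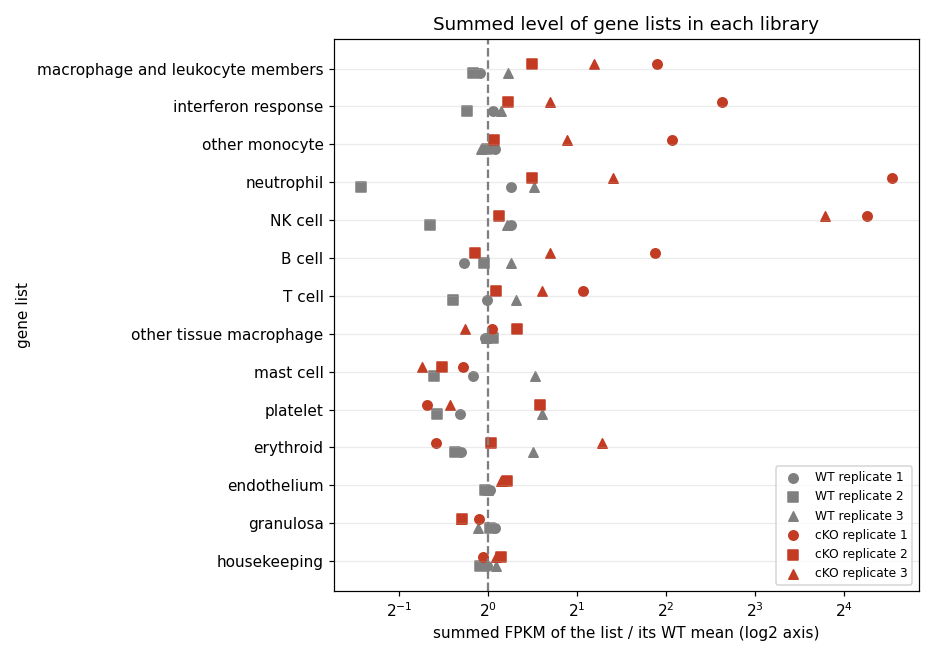
Summed FPKM of each gene list in a library divided by the mean of its WT sums (x axis, log2 axis), by list (y axis); each point is 1 library, WT in grey and cKO in red, with the marker shape giving the replicate number. The members, interferon response, monocyte, neutrophil, NK, B and T cell lists place cKO replicate 1 furthest right and replicate 3 second, while the other tissue macrophage, mast cell, platelet, erythroid, endothelium, granulosa and housekeeping lists do not.

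Lists of other cells in blood and tissue did not share this order. Summed erythroid genes (7) stood at 190, 182 and 333 FPKM in WT and 157, 240 and 572 FPKM in cKO, so that cKO replicate 1, highest for leukocyte genes, was lowest for erythroid genes. Summed platelet genes (6) stood at 4.43 to 10 FPKM in WT and 4.08, 9.84 and 4.88 FPKM in cKO. Mast cell genes (8) summed to 33.5, 24.7 and 54.3 FPKM in WT and 30.8, 26.3 and 22.4 FPKM in cKO, with the chymase gene Mcpt4 at 7.04, 4.78 and 11 FPKM in WT and 4.81, 2.58 and 2.75 FPKM in cKO (log2 fold change -0.95, limma adjusted p = 0.743). Endothelial genes (8) summed to 166 to 172 FPKM in WT and 188 to 196 FPKM in cKO, and housekeeping genes (10) to 2970 to 3360 and 3050 to 3510 FPKM.

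Interferon response genes had the same order of cKO libraries as the members. The summed level of 15 genes was 125, 102 and 133 FPKM in WT and 745, 140 and 194 FPKM in cKO replicates 1, 2 and 3. In 13 of the 15, cKO replicate 1 was highest and replicate 3 second (4.67% of all genes). At an unadjusted limma p under 0.05, 8 of 15 were higher (3.64% of all genes) and 0 lower (2.7%), but 7 of the 15 had a WT mean under 1 FPKM and entered the test through the cKO libraries. At the filter of 0.1 FPKM the count was 8 of 15 with all libraries (3.49%) and 8 of 15 without cKO replicate 1 (2.8%). Usp18, a negative regulator of interferon signalling, stood at 0.59 to 0.856 FPKM in WT and 15.1, 1.59 and 3.78 FPKM in cKO, and Rtp4, an interferon-induced gene, at 1.03 to 1.97 and 16.9, 2.83 and 6.0 FPKM. Several members, among them Siglec1, Ctss and Cybb, are known interferon targets in macrophages, and the part of the interferon response in their levels was not tested.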

How the data were processed

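The 6 libraries of whole ovary (3 WT and 3 cKO) were analysed from a single table of FPKM values deposited by the authors. The submitters' processing notes name HISAT2 2.0.5 and, without a role, the builds mm10 and GRCm39; the chromosome accessions in the table are those of GRCm39. Counter, annotation release and strandedness were not given in the sources used here, and 10 of the 38 members overlap another annotated gene. FPKM times the gene length given in the deposited table was a whole multiple of 1 step per library within 0.01, for 100% of values, which gave the recovered reads.

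FPKM values were used as scaled by the authors and transformed to log2(FPKM + 1), a scale that compresses differences of low genes. The 14714 of 47205 genes that averaged 1 FPKM or more were compared with limma 3.58.1 in R 4.3.3 (lmFit, eBayes with a trend, two-sided), with Benjamini-Hochberg adjustment over all genes tested and a threshold of 0.05. Group values are mean ± SD over 3 libraries. A second fit with the filter at 0.1 FPKM tested all 38 members. Promoter windows came from RefSeq (GRCm38.p6), while gene positions follow the table. The fit was tested on simulated data. All 38 members are named, with up to 4 genes of each other list by smallest p or as defining markers; others are said to be chosen after their values were seen. The members, classes, lists and tests were chosen with earlier results of these data known. Alternatives were other pseudocounts, filters, scalings and priors, protein-coding genes only, limma-voom, a replicate block and leaving out each library.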

Additional observations from a re-analysis of the deposited data

How the results depend on the processing

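The filter at 0.1 FPKM combined with leaving out cKO replicate 1 was chosen after seeing the data. Over 18 alternatives, 523 of 528 member fold changes kept their direction and 0 passed the adjusted threshold (smallest limma adjusted p = 0.114). The 5 that turned were those of Mrc1, at -0.04 with a common total per library, -0.07 and -0.02 without WT replicate 1 or 2, and -0.08 and -0.06 without cKO replicate 2 or 3, in a range of -0.08 to 0.19 (the latter without cKO replicate 1) over the single libraries left out; the cause was not tested.

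The number of members higher at an unadjusted limma p under 0.05, 20 of 31, where 3.64% of all genes were, went to 6 of the 6 left with a filter at 5 FPKM (3.35%), to 13 with no filter on low values (1.98%), and to 13 of 38 with the filter at 0.1 FPKM and no cKO replicate 1 (2.8%). Leaving out a single library gave 10 to 27, with 12 without WT replicate 1 (3.74%), 10 without WT replicate 2 (1.78%), 12 without cKO replicate 1 (2.85%), 27 without cKO replicate 2 (4.18%) and 12 without cKO replicate 3 (3.58%). limma-voom gave 17 (3% of all genes). In 16 of 31 members every cKO library lay above every WT library (6.37% of all genes). Of the 31, 9 had a WT mean under 1 FPKM and entered the test through the cKO libraries. Nothing is therefore read from counts over the 31 or from how little they move. The filter at 5 FPKM gave 5 of 6 (6.28%). Leaving out a library gave from 14 of 26 without cKO replicate 1 (10.6%) to 27 of 31 without cKO replicate 2 (12.1%). With a library left out the share of all genes was itself larger, at 8.62% to 13.4%. With the filter at 5 FPKM the median log2 fold change was 1.5 over resident macrophage members, against 0.69. Over monocyte and myeloid members it was 1.52, against 0.75. That filter takes the mean of all 6 libraries. Ctss, Tyrobp and Laptm5, with WT means of 2.43, 2.52 and 4.85 FPKM, passed it through the cKO libraries. Mrc1, with means of 4.79 FPKM in WT and 4.89 FPKM in cKO, did not pass. Nothing is therefore read from the counts and medians at this filter. Scaling to a common total moved the median of all genes to -0.06 and the share of genes above 0 from 50% to 36.5%.

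Correlations of deviations from the group means were 0.18, -0.08 and -0.057 between same-numbered WT and cKO libraries. Between libraries of different numbers they ran from -0.23 to 0.23. With 3 libraries per group, these values cannot decide whether the replicate numbers pair the libraries. With the replicate number as a block, 0 members passed the adjusted threshold and 19 of 31 were higher at an unadjusted p under 0.05 (3.32% of all genes). Many WT values rest on few reads, as in Cd52, Cd48, Lst1 and Itgax, where a fold is imprecise.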

Other observations

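Other genes of macrophage function were read from lists chosen by role. Of 11 transcription factor genes of the lineage, 7 were tested, and 2 were higher (3.64% of all genes) and 0 lower (2.7%) at an unadjusted limma p under 0.05, or 1 higher without cKO replicate 1 (2.85%). Cebpb, a factor of inflammatory and many other cells, stood at 20.4, 18.7 and 15.1 FPKM in WT and 28.4, 26.8 and 25.1 FPKM in cKO (log2 fold change 0.55, limma adjusted p = 0.713), and Cebpa at 9.08, 6.87 and 6.88 FPKM in WT and 11.9, 10 and 8.87 FPKM in cKO. In both genes cKO replicate 2 was above replicate 3, unlike most leukocyte members.

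Lysosomal genes that all cells make were read beside the macrophage proteases. Their summed level was 1050, 1010 and 1100 FPKM in WT and 1240, 1140 and 1230 FPKM in cKO, the order of cKO libraries seen in most leukocyte members. Of 14 genes, 4 were higher (3.64% of all genes) and 0 lower (2.7%) at an unadjusted limma p under 0.05. The count was 3 with the filter at 0.1 FPKM (3.49%) and 0 without cKO replicate 1 (2.85%). The 4 were Grn, Hexa, Ctsb and Ctsd, with Grn, which encodes progranulin, at 58.7, 61.9 and 72.4 FPKM in WT and 93.1, 79.6 and 78.5 FPKM in cKO (log2 fold change 0.38, limma adjusted p = 0.743). Of 12 inflammatory cytokine and enzyme genes, 9 stood under 1 FPKM in every WT library. Il1b stood at 0.0874 FPKM or less in WT and at 1.34, 0.0551 and 0.26 FPKM in cKO, and Tnf at 0.229 FPKM or less in WT and 0.448, 0 and 0.033 FPKM in cKO. Il1b and Tnf were chosen after their values were seen.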
